A study of Drosophila melanogaster with 2 samples.

Results

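The 10 genes described here are regulators and products of the Drosophila melanogaster salivary gland: hkb, fkh, sage, CrebA, sens and rib, which encode transcription factors, and pip, ps, PH4alphaSG1 and PH4alphaSG2, which act in secretory cells. They were taken as a named list, 10 of the 13945 protein-coding genes on the chromosomes analysed, and were looked up in a ChIP-seq experiment on the transcription factor Fer1. A peak summit, the base of highest enrichment in a peak, was assigned to a gene when it lay inside the gene or within 10 kb of either end. All libraries formed 1 group, with 2 biological replicates: whole embryos of mixed sex, 6 to 24 h old, from a transgenic strain that stably expresses Fer1 with a GFP tag at its C-terminal end. Chromatin bound by the tagged protein was recovered with an antibody against GFP. The labels give neither the sequence that drives the transgene nor the tissue in which it is active, and a whole embryo mixes all cell types, so a summit cannot be placed in salivary gland cells or elsewhere. No group without the tag was compared, and the control library that the labels point to was not analysed here.

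The embryonic salivary gland forms from a placode of ectodermal cells that invaginate, stop dividing and turn into a secretory tube. In that placode the FoxA protein Fork head (fkh) acts with the bHLH protein Sage to set and maintain the identity of the secretory cells, Huckebein (hkb) helps to shape the invagination, Ribbon (rib) acts in the elongation of the tube, Senseless (sens) protects the cells from apoptosis, and CrebA raises the expression of the secretory machinery. Fer1 is a bHLH protein as well, and proteins of this family dimerise on the E-box, CANNTG.

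Peaks were read from 4 of the authors' lists on the dm6 build. Each of the lists for replicate 1, replicate 2 and the pooled replicates held 30000 peaks. The thresholded list, which passed the authors' test of reproducibility, held the 7329 pooled peaks with the highest signal value, from 110.1 to 4431. A single peak in it need not overlap a peak of each replicate list. Signal values are the authors' own and were ranked within a list, rank 1 being the highest. At peaks matched in both replicates the signal was 1.48 times as high in replicate 1 (median), so a level in one list was not read against a level in another, and where replicates are compared it is by rank or by the ratio set beside that median. Read totals are no part of peak lists, so the depth of the libraries is unknown.

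The 8 stretches of 101 bases below are centred on promoter, upstream and intronic summits of fkh, CrebA, pip and ps, the strongest of each gene among them. They show which of these windows hold an E-box and which do not. All are dm6 plus strand sequence, 5′ to 3′, from the RefSeq copy of Release 6, with every CANNTG in capitals.
fkh promoter, 3R:28585437-28585537: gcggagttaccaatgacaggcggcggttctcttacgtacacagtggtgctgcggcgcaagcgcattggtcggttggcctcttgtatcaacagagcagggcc
fkh upstream, 3R:28587182-28587282: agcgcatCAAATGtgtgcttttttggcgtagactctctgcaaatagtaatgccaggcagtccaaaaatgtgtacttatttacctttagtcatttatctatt
CrebA intron, 3L:15548943-15549043: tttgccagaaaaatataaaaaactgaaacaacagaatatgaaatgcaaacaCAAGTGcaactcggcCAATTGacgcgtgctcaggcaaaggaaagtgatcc
pip promoter, 3L:19337846-19337946: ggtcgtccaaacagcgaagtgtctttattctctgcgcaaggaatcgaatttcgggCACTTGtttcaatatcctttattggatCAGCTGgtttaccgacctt
ps start 2, 3R:9419406-9419506: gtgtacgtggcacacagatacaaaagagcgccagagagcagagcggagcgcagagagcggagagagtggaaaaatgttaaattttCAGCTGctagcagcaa
ps start 3, 3R:9428326-9428426: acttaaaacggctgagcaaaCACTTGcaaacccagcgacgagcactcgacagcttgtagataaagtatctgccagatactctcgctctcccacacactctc
ps intron, past start 3, 3R:9429154-9429254: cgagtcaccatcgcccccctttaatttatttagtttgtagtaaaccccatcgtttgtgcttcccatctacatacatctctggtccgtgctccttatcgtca
ps intron, past start 5, 3R:9434966-9435066: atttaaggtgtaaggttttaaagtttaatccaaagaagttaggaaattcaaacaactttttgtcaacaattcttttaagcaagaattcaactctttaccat
The fkh promoter window held 0 E-boxes and 59.4% G or C, against a mean of 36.9% over the windows of all thresholded summits. The pip promoter window held CACTTG, which is CAAGTG on the other strand, and CAGCTG. The CrebA window held CAAGTG and CAATTG, and the windows at start sites 2 and 3 of ps held CAGCTG and CACTTG. The windows of the strongest summits inside ps, in introns past start sites 3 and 5, held 0.

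Of the 10 genes, 6 had a thresholded summit inside the gene or within 10 kb, namely fkh, sage, CrebA, rib, pip and ps. Across all coding genes the share was 69.9%, so a count of 6 does not set these genes apart from others. The genes without one were hkb and sens among the regulators and PH4alphaSG1 and PH4alphaSG2 among the products. The same 6 had a summit in the longer pooled list (80.9% of coding genes) and in the list of replicate 1 (82.4%), and hkb joined them in the list of replicate 2 (83.5%). A summit within 1 kb of one of the gene's transcription start sites was found at 4 of 10, fkh, rib, pip and ps, against 33.1% of coding genes. From the highest 7329 peaks of replicate 2 alone the promoter count was 2, since the peaks at rib and pip were not among them, and from those of replicate 1 it was 4.

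**Figure D1:**
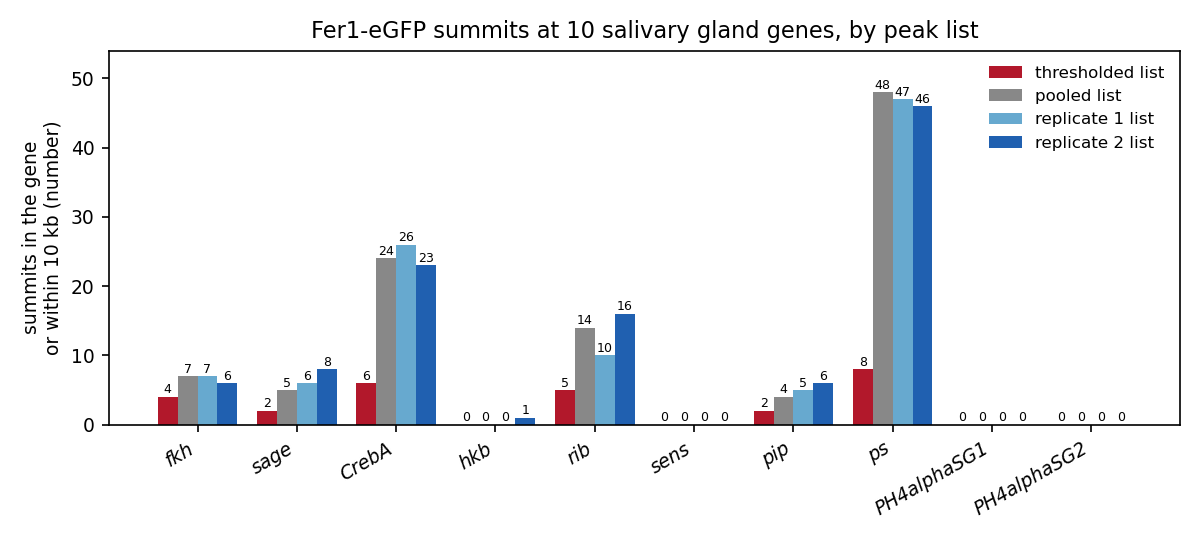
Number of peak summits inside each of the 10 genes or within 10 kb of it (vertical axis) in the thresholded, pooled, replicate 1 and replicate 2 lists (bars). The gene ps has 8 thresholded and 48 pooled summits, while sens, PH4alphaSG1 and PH4alphaSG2 have 0 in every list.

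The 6 genes shared out 27 thresholded summits, none of which was counted at more than 1 of them. Inside the genes lay 11, at ps (7), CrebA (3) and rib (1). The member was the coding gene with the nearest start site for 16 summits, and another gene was nearer for 11. At 5 of the 10 genes (fkh, CrebA, rib, pip and ps) at least 1 summit had the gene's own start site as its nearest, against 29.4% of coding genes. The median signal of the 27 was 174.8, beside 182.1 over the whole thresholded list. Of the 27, 6 ranked in the highest 1000 of the 7329, and these include the summits nearest to the starts of the neighbours Gbs-76A and GstZ2.

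The strongest of the 27 lay at the promoter of fkh. The gene (FBgn0000659) lies on the minus strand at 3R:28580976-28585264, with no other coding gene within 10 kb, and its promoter summit at 28585487 was 223 bp upstream of the first start site, in sequence annotated as intergenic. It had a signal of 1345 in the pooled list, 801.4 in replicate 1 and 558.5 in replicate 2, which gave it ranks of 85, 87 and 83. Both replicates thus placed it at nearly the same rank, and their summits lay 0 and 2 bp from the pooled one. The signal was 7.39 times the median of the thresholded list. This is the summit whose window held no E-box.

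The other 3 summits at fkh were much lower. Those 1968 and 5441 bp upstream both fell in exons of the non-coding RNA gene lncRNA:CR43126. The nearer one had 124.7 in the pooled list, 71.7 in replicate 1 and 52.8 in replicate 2, and its window held 1 E-box, CAAATG. The farther one had 113.6, 54.4 and 60.9 in the same order, close to the lower end of the thresholded list. The last lay 9960 bp past the 3′ end of the gene (194.8, 113.5 and 81.2), and no summit of the pooled list lay inside the gene.

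**Figure D2:**
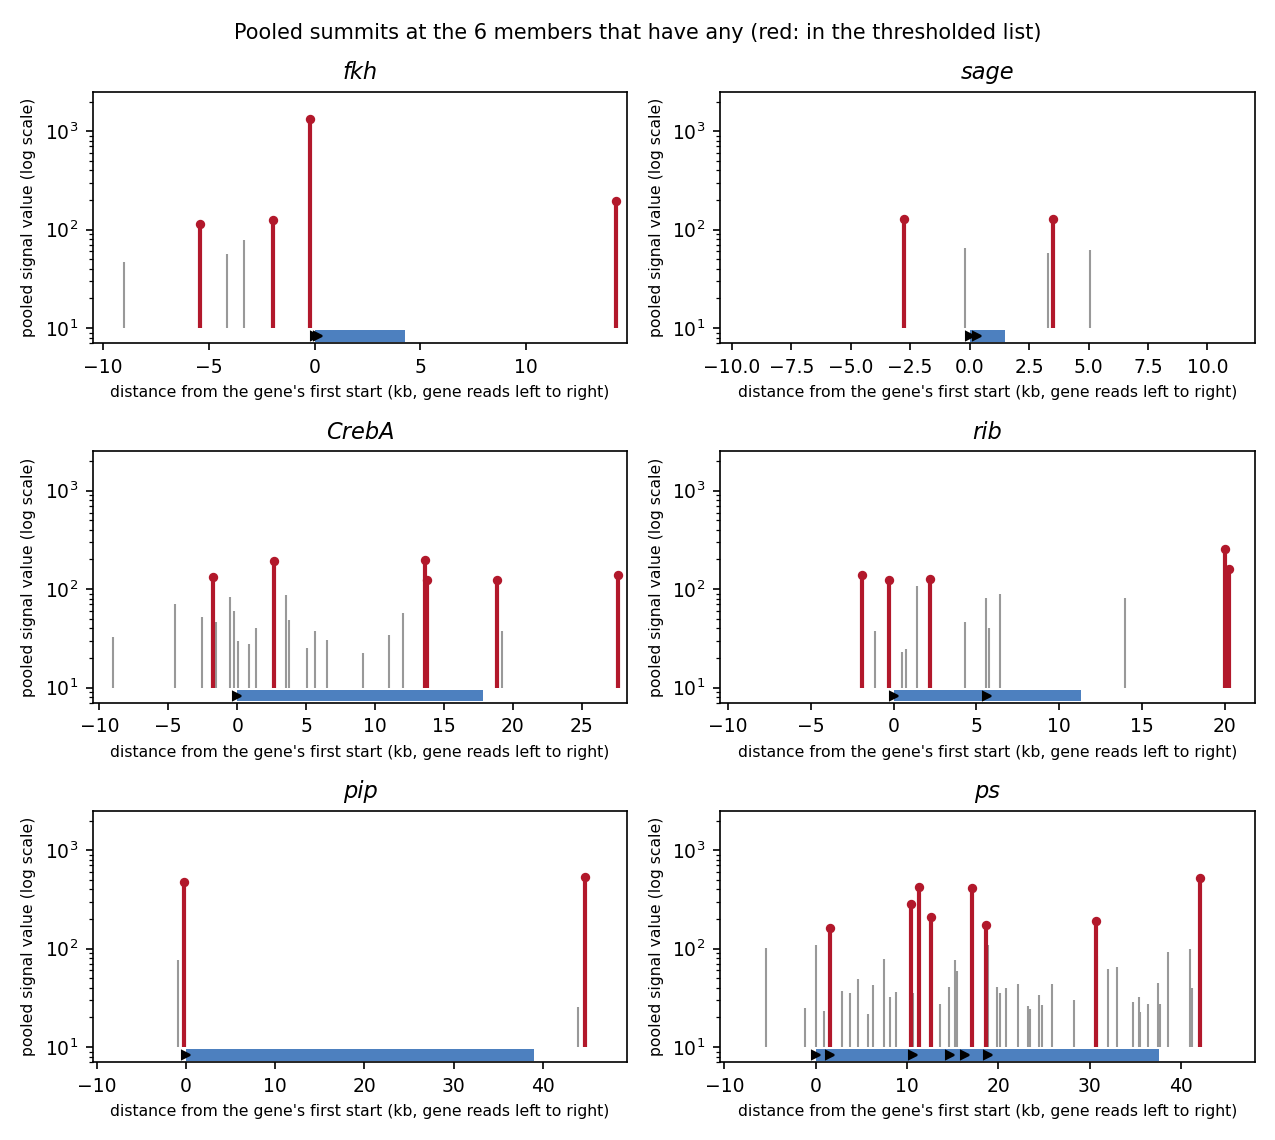
Pooled signal value of each summit (vertical axis, log scale) against distance from the gene's first start site in kb, with the gene drawn left to right as a blue bar and its start sites as black arrowheads. Red lines with dots are summits of the thresholded list and grey lines other pooled summits; the fkh promoter summit (1345) stands highest, and the ps summits spread along the gene.

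The gene sage (FBgn0037672, minus strand, 3R:9262654-9264142) is short, with 8 other coding genes within 10 kb, and both of its thresholded summits belonged by position to neighbours. One lay in the 5′ UTR of TrpRS, a tryptophan tRNA synthetase gene, 5 bp from its start site, with 129.1 in the pooled list, 72.1 in replicate 1 and 60.5 in replicate 2. The other lay in the 5′ UTR of ATP6AP2, which encodes an accessory protein of the vacuolar ATPase, 3 bp from its start site (128.4, 65.8 and 65.1). At the sage promoter itself there was a summit 179 bp upstream in the pooled list, below the threshold, with a signal of 64.8 and rank 13004. Replicate 1 had it 182 bp upstream (34.3, rank 15634) and replicate 2 had it 193 bp upstream (30.5, rank 12643), so both replicates listed a weak peak there.

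CrebA (FBgn0004396, plus strand, 3L:15535395-15553214) encodes a bZIP factor of the CREB3 type and had 6 thresholded summits, a count reached by 8.33% of coding genes. The gene is long, 17820 bp against a median of 2166 bp over coding genes. Its own start site was the nearest for 2 of the 6 summits. None of the 6 lay within 1 kb of that single start site, where the highest pooled summit was 537 bp upstream at 83.1 (rank 10122). Upstream of the gene, 1779 bp from the start, a summit had 134.1 in the pooled list, 79.3 in replicate 1 and 57.8 in replicate 2. The remaining 5 were inside the gene or past its end.

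Of the 3 intronic summits of CrebA, the one 2706 bp into the gene had 194.8 in the pooled list, 122.9 in replicate 1 and 84.5 in replicate 2. Farther along, the summit whose window is printed above had 197.2, 124.7 and 80.6, with ranks of 3242, 3016 and 3448. The next summit along had 123.2 in the pooled list and 32.7 in replicate 1, and the nearest replicate 2 summit was the same 80.6 peak. That peak lay 117 bp from the first summit of the pair and 87 bp from the second, so it cannot be given to 1 of them. Both summits of the pair lay nearer to the start of AGO2, 5120 and 4916 bp upstream of it, than to that of CrebA. Of the summits past the gene, the one in the 5′ UTR of AGO2, an Argonaute gene of RNA interference, differed most between replicates, with 123.6 in the pooled list, 95.4 in replicate 1 and 26.4 in replicate 2. The other lay 8 bp from the start of CG7739 (139.0, 83.2 and 55.6). Below the threshold CrebA carried many weaker peaks: the pooled list had 24 summits within the window, 6.35 per 10 kb against 2.24 over the genome.

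The gene rib (FBgn0003254, plus strand, 2R:19270078-19281396) encodes a nuclear protein with a BTB domain and had 5 thresholded summits. The one 290 bp upstream of its first start site had 124.8 in the pooled list, 75.8 in replicate 1 and 47.8 in replicate 2, with a replicate 2 rank of 7419 just outside the highest 7329. A summit 1888 bp upstream was similar (137.8, 75.8 and 62.5), as was an intronic one 2190 bp into the gene (125.9, 74.9 and 50). The strongest within the window, 257.0 in the pooled list, 134.5 in replicate 1 and 117.3 in replicate 2, lay 14 bp from the start of Fkbp12, the gene of a prolyl isomerase, and the fifth was in an intron of the same gene (160.0, 86.8 and 66.9). The peaks at rib's own promoter thus sat near the lower end of the thresholded list, and the higher ones lay at a neighbouring promoter.

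The regulators hkb and sens, both zinc finger genes, had no thresholded summit. For hkb (FBgn0261434, minus strand, 3R:4345015-4346646) the nearest was 14225 bp away, next to CG1090, and the nearest pooled summit 10704 bp away. The only summit within 10 kb in any list was 1 in replicate 2, 8021 bp past the 3′ end of the gene, with a signal of 14.4 and rank 25626. Thresholded summits left a gap of 41.2 kb around hkb, and 38.2% of coding genes lay in a gap at least as long. The gap around sens (FBgn0002573, minus strand, 3L:13396228-13401125) was longer, 198.5 kb with 23 coding genes in it, and 6.70% of coding genes lay in a gap of that length or more. The nearest pooled summit to sens was 34176 bp away, and 6.14% of coding genes were as far from one or farther. The list of replicate 1 had its nearest summit at the same distance, but that of replicate 2 had one 11640 bp from sens. The gap around sens was 110.6 kb in the pooled list, 78.8 kb in replicate 1 and 76.4 kb in replicate 2, and 7.01%, 11.5% and 10.2% of coding genes lay in gaps as long.

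Among the products, pip encodes a Golgi sulfotransferase that sulfates glycoproteins, known for its part in dorsoventral patterning of the embryo and expressed in salivary glands. The gene (FBgn0003089, minus strand, 3L:19298623-19337609) is 38987 bp long, and no list had a summit inside it. Its promoter summit lay 287 bp upstream of its single start site, with 472.4 in the pooled list (rank 753) and 277.2 in replicate 1 (rank 800). The list of replicate 2 had no peak overlapping that interval: its nearest summit was 606 bp farther upstream, with a signal of 36.4 and rank 10394. Of the 753 thresholded peaks at least this strong it was the only 1 without an overlapping replicate 2 peak, 0.133% of them. Over the whole thresholded list 14 peaks lacked one in replicate 2, and 23 lacked one in replicate 1. The ratio of pooled to replicate 1 signal at the pip promoter was 1.70, inside the quartiles (1.55 and 1.78) of all 5881 thresholded peaks matched in replicate 1. All 31-base words of the peak occur once in the genome. Whether replicate 2 lacks enrichment at this promoter was not tested, since reads were not analysed here.

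A second thresholded summit within 10 kb of pip lay past its 3′ end and 66 bp upstream of Gbs-76A, which encodes a glycogen-binding subunit of protein phosphatase 1. It had 528.8 in the pooled list, 310.3 in replicate 1 and 212.1 in replicate 2, with ranks of 619, 637 and 648. In contrast to the promoter of pip, that of its neighbour was therefore present at a similar rank in every list. Replicate 2 also listed a summit 3070 bp upstream of pip with a signal of 80.7 and rank 3436 that had no counterpart in the pooled or replicate 1 lists.

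The gene with most summits was ps (pasilla, FBgn0261552, plus strand, 3R:9417940-9455500), which encodes a KH-domain splicing factor of the Nova type needed for secretion by the salivary gland. It had 8 thresholded summits, a count that 2.55% of coding genes reached, and 48 pooled summits, which 0.380% reached. The gene is long, 37561 bp against a median of 2166 bp over coding genes. Per 10 kb of its window it had 1.39 thresholded and 8.34 pooled summits against 0.548 and 2.24 over the genome.

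The ps gene has 6 start sites, and 4 of them had a thresholded summit within 1 kb. At the second start site, the summit 65 bp upstream had 162.6 in the pooled list, 113.8 in replicate 1 and 48.1 in replicate 2. At the third, the gene had a summit 185 bp upstream (283.9, 181.0 and 103.9) and a higher one 643 bp downstream (419.9, 269.0 and 149.1). The summit 750 bp past the fifth start site was about as high in the pooled list, with 411.9, and had 232.4 in replicate 1 and 172.2 in replicate 2. These last 2 ranked 949 and 985 in the pooled list, so both of the strongest summits of ps lay in introns downstream of internal start sites and not at the start of the gene. The sixth start site had a summit 214 bp upstream (174.8, 111.9 and 56.7). The first start site had none in the thresholded list; the pooled list placed a summit 15 bp upstream of it at 108.6, rank 7445, just below the threshold.

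A further intronic summit of ps, 2001 bp past the third start site, had 209.4 in the pooled list, 146.5 in replicate 1 and 63 in replicate 2. The summit in the 3′ UTR had 192.9, 143.1 and 55.5. The highest within 10 kb lay in an intron of GstZ2, a glutathione transferase gene downstream of ps, with 523.4 in the pooled list, 315.4 in replicate 1 and 236.1 in replicate 2. Inside ps the ratio of replicate 1 to replicate 2 signal was above the upper quartile of all matched peaks (1.72) at 6 of 7 summits. The ratios ranged from 1.35 to 2.58. They were taken at the nearest summits, whereas the quartile covers peaks matched by shared intervals, and some ps summits lack such a match. The ratio was above that quartile at 0 of 3 summits inside CrebA, where the lowest (0.406) rests on the replicate 2 peak shared by the close pair. Over all members, at any position, it was so at 7 of 26 summits, including the one at AGO2 in the CrebA window (3.61). Summits of 1 gene are not independent of each other, and the difference between ps and CrebA was not tested.

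PH4alphaSG1 (FBgn0051014, minus strand, 3R:30503665-30505661) and PH4alphaSG2 (FBgn0039779, plus strand, 3R:30490074-30491987) encode alpha-type subunits of prolyl 4-hydroxylase, the enzyme that hydroxylates proline in collagen-like proteins, and are named for the salivary gland. Neither had a summit within 10 kb in any of the 4 lists. Both lay in a single stretch of 66.3 kb without thresholded summits, which held 14 coding genes. Of these, 5 have PH4alpha names, and others without such names are also among the prolyl 4-hydroxylase alpha genes looked up below. Across all coding genes, 27.6% lay in a stretch as long. The nearest pooled summits were 20396 bp from PH4alphaSG1 and 23779 bp from PH4alphaSG2, and 10.6% and 9.19% of coding genes were as far from one. Of the 31-base words inside each of the 2 genes, 100% occur once in the genome, and with 10 kb added to each side 85.9% do at PH4alphaSG2 and 21961 of 21967 words at PH4alphaSG1. Whether repeated sequence bears on the lack of summits was not tested.

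The replicates placed most of these summits alike. For 26 of the 27, each replicate list had a summit within 122 bp of the pooled one, and the exception was the pip promoter. That count was not made over all thresholded peaks. In 20 of the 26 the peak ranked among the highest 7329 in both replicates. The ratio of replicate 1 to replicate 2 signal, taken at the nearest summits, had a median of 1.44 over the 26. Over all thresholded peaks that share 50% of both intervals with a peak of each replicate it was 1.48 (quartiles 1.26 and 1.72). By that rule 20 of the 27 were matched, with a median of 1.42. The lowest ratio, 0.406, was at the second of the close intronic pair of CrebA, which share 1 replicate 2 peak. The highest, 3.61, was at AGO2. By a stricter rule that asks for 50% of both intervals to be shared with one of the highest 7329 peaks of each replicate, 15 of 27 were matched (55.6%, 95% Clopper-Pearson interval 35.3 to 74.5), and 54.1% of all thresholded peaks were. With 1 bp of overlap the shares were 77.8% and 81.1%. With a summit of the highest 7329 of each replicate within 100 bp they were 63% and 74.3%, lower at these genes. With the 50% rule over the whole replicate lists they were 74.1% and 70.4%.

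**Figure D3:**
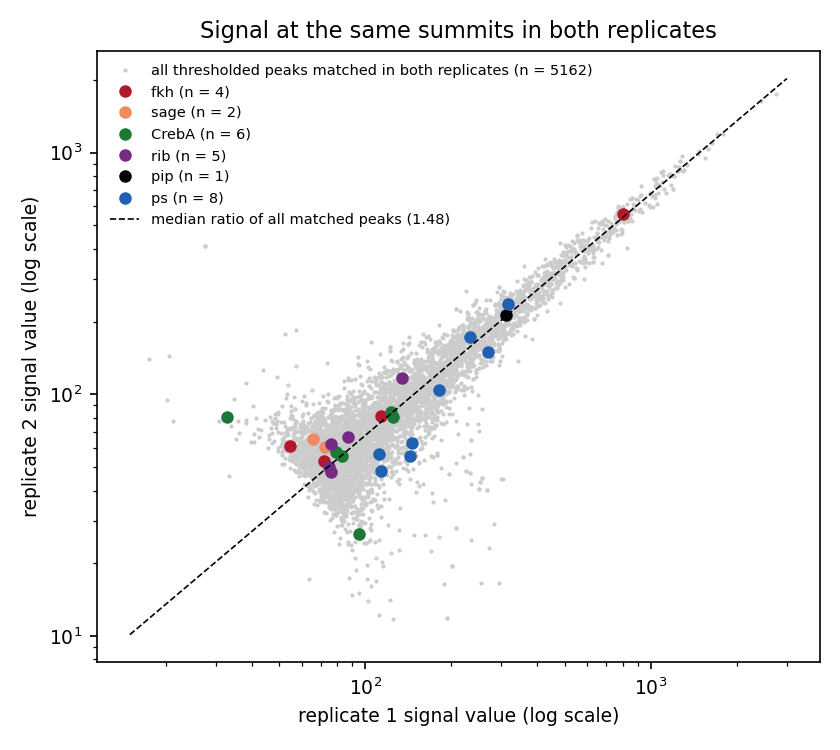
Signal value in replicate 2 (vertical axis, log scale) against replicate 1 (horizontal axis, log scale) at 26 of the 27 summits, coloured by gene, over all thresholded peaks matched in both replicates (grey, n = 5162); the dashed line is their median ratio of 1.48. The fkh promoter summit lies far up the line, most ps summits lie below it, and 2 CrebA summits stand away from it on opposite sides.

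E-boxes were about as frequent at these summits as at others. A CANNTG lay within 50 bp of 12 of the 27 (44.4%, 95% Clopper-Pearson interval 25.5 to 64.7), and 37.8% of all thresholded summits had one. With 100 bp to each side the shares were 66.7% and 61.5%. The motif GAGAG, which the GAGA factor binds, was in 4 windows (14.8%, interval 4.19 to 33.7), with 12.9% over all summits, and the windows at the second and the third start site of ps held it 4 and 3 times, overlapping copies included. TAAACA, the core bound by Fork head proteins, was in 5 windows (18.5%, against 15.7%), and CGTCA, the core of the site that CREB-type factors bind, was in 2 (7.41%, against 7.08%). AAATCA, which Senseless and its mammalian relative GFI1 bind, was in 6 (22.2%, interval 8.62 to 42.3, against 12.4%), and TATCGATA, the DNA replication-related element of many promoters, in 0 (against 1.8%). All motifs were searched on both strands, each interval held the share over all summits, and a match of letters does not show that a factor was bound.

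Genes around this group in the pathway were looked up in the same way, from 7 further lists. Of 12 selectors and signals that act in the placode, 8 had a thresholded summit within 10 kb (66.7%, against 69.9% of coding genes). Within 1 kb of a start site 6 had one (50%, against 33.1%). Among these were spi, the EGF receptor ligand (680.8), Mad, which transduces Dpp (363.2), and pnt, an ETS factor downstream of the receptor (212.2). The Hox gene Scr and its cofactor exd, which together turn on the gland fate, had 0 thresholded summits and 9 and 12 pooled ones. Of 7 duct genes, 3 had a summit within 10 kb (42.9%) and 2 at a promoter (28.6%), both below the shares of all coding genes. The 2 were trh, the bHLH-PAS regulator of the duct (952.3, rank 204), and its partner tgo (246.5).

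Of 23 genes of tube formation, 23 had a summit within 10 kb (100%, beside the 69.9% of coding genes). At a promoter 15 had one (65.2%, beside 33.1%). The highest promoter summits were at Btk, a cytoplasmic tyrosine kinase (1056), klar, which acts in vesicle transport during lumen formation (742.0), and sqh, the myosin light chain (530.1). Of 12 larval glue genes, which are expressed long after the embryonic stages sampled, 11 had a summit within 10 kb (91.7%) and 4 at a promoter (33.3%). However, neighbouring glue genes share summits. Of the 24 other prolyl 4-hydroxylase alpha genes, 9 had one within 10 kb (37.5%, against 69.9% of coding genes). At a promoter 2 had one (8.33%, against 33.1%). For 13 of the 24 the pooled list had none either. PH4alphaSG1 and PH4alphaSG2 were thus not alone in their family in lacking a summit. However, several of the 13 lie in the same stretch as these genes, so they are not separate cases. Several of the 9 with a summit also share one, such as PH4alphaNE3, CG31016 and CG31021 (579.8, rank 516).

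The lists around pip and ps had shares above those of all coding genes, which were 69.9% within 10 kb and 33.1% at a promoter. Of 8 sulfation genes, 8 had a summit within 10 kb and 6 at a promoter, with the highest at the heparan sulfate sulfotransferase genes Hs3st-A (722.9) and Hs2st (623.9), and one at Papss, which makes the sulfate donor (258.3). Of 16 other splicing factors, 15 had a summit within 10 kb and 13 at a promoter, led by elav (1832, rank 32) and mbl (767.8, rank 308). By the way the counts were made, a longer gene has a wider window and a gene with more start sites has more promoter windows. Whether this bears on the shares of these lists was not tested, and no list was tested against the others.

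**Figure D4:**
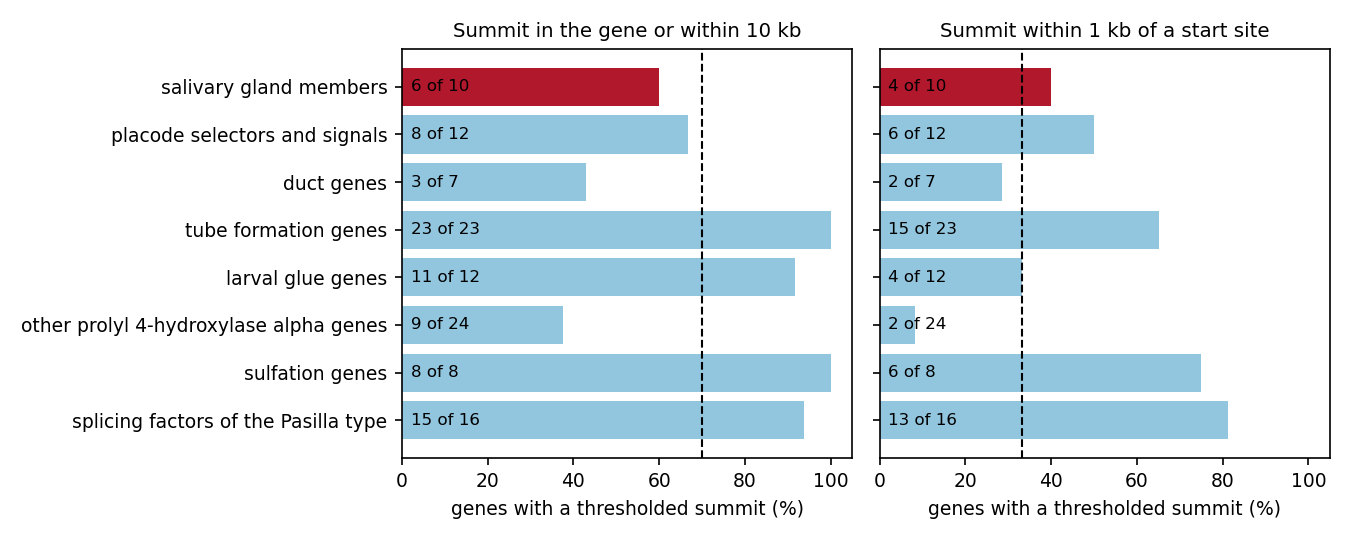
Share of genes (horizontal axis, percent) with a thresholded summit in the gene or within 10 kb (left) and within 1 kb of a start site (right), for the 10 salivary gland genes (red) and 7 further lists (blue), with counts in the bars. The dashed lines are the shares over all coding genes, 69.9% and 33.1%; the salivary gland genes lie below the first and above the second.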

How the data were processed

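The sources were ChIP-seq peak lists of 1 group with 2 replicates. Chromatin was sonicated to 200 to 800 bp, per the labels. For dm6 the authors deposited a list per replicate, a pooled list and a thresholded list. Signal values, in the authors' own units, and −log10 q-values are as deposited. Peaks were ranked by signal. No source used here names the aligner, the peak caller, the read filters, the read length or the reproducibility threshold. The dm3 lists were not used.

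Summits were converted to 1-based positions and assigned to genes of Ensembl release 115. Sequence came from RefSeq's Release 6. A replicate value is that of the replicate summit nearest to the pooled summit, up to 150 bp away. Counting was tested on simulated data. Counts stand beside the share of all coding genes, and with 1 group no p-value was computed. Intervals are 95% Clopper-Pearson and cover counting error over summits only. Genes named outside the 10 were those nearest to a member's summit, or among the up to 5 in a further list with the highest promoter summit. Exceptions chosen after their values were seen are Scr and exd. 3 symbols were matched through synonyms. The genes, lists and motifs were chosen with earlier results of these data known. The replicate distances, gaps between summits, word counts and ratios inside genes were added after seeing the data. Tools were pandas 2.3.3, numpy 2.4.6 and scipy 1.17.1 under Python 3.11.15, with figures drawn in matplotlib 3.10.9.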

Additional observations from a re-analysis of the deposited data

How the results depend on the processing

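The 6 genes with a summit stayed at 5 or 6 in the alternatives, except that with the gene body alone there were 3. The 27 summits became 14 with a 1 kb window, 11 with the gene body alone, 13 in the highest 3664 peaks and 102 in the whole pooled list, and 24 to 29 from a single replicate. The genes whose own start site was nearest, 5 of them, were 3 with the gene body alone. The promoter count of 4 was 2 without replicate 1 and 4 without replicate 2, and over all alternatives it ranged from 2 to 6, with 6 in the whole pooled list and with 5 kb around a start site. The matched share of 55.6% was 77.8% with 1 bp of overlap, and the E-box share of 44.4% was 66.7% with 100 bp to each side. Fewer bases, fewer peaks or more peaks enter by the construction of these alternatives. Of 34 alternative values of these counts and shares, the other 25 stayed within 1.5 times the count or inside the share's interval. Of 47 further values, 36 ranks or motif shares moved by less than the replicate spread or the interval. The 11 that moved more were ranks at CrebA, rib, pip and ps. Among the 36, ranks from the whole pooled list and from the highest 3664 peaks could not move, so they are no sign of stability. The thresholded list is the top of the pooled list, and the strongest summits are the same in each. No paired analysis was possible because there was 1 group. With unknown depth and lists that end at 30000 peaks, a gene without a summit cannot be told apart from one with enrichment below the end of the list. Signal in embryos without the tag was not analysed here.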

Other observations

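A few peaks near these genes ranked among the highest 7329 of 1 replicate and overlapped no thresholded peak. Replicate 2 had the summit 3070 bp upstream of pip described above, and another 92 bp past the first start site of ps (66.4, rank 4669), where replicate 1 had 50.1 at rank 10547. In replicate 1 there was a summit 1418 bp into rib (83.9, rank 5522), which replicate 2 had at 26.6 and rank 14617. Near ps, replicate 1 also had summits 45 bp upstream of GstZ2 (78.1, rank 6108) and 88 bp upstream of alpha-Man-IIa, a Golgi mannosidase gene (68.8, rank 7242). Except for the one upstream of pip, each had a counterpart in the pooled list, with a signal from 100.1 to 108.6, below the 110.1 at which the thresholded list ends.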
